A study of Homo sapiens with 20 samples.

Results

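The voltage-gated ion channels and connexins were taken as every row of the count tables whose gene symbol belongs to the potassium (KCN), sodium (SCN), calcium (CACNA, CACNB, CACNG) or pacemaker (HCN) channel families or to the connexin families GJA to GJD. Of 194 rows with such symbols, 28 hyphenated names (antisense, intronic and read-through transcripts) and 3 pseudogenes were left out, which leaves 163 members of 58735 genes in the tables. They comprise 161 protein-coding genes and 2 noncoding RNA genes that carry a channel's name, KCNQ1OT1 and KCNQ1DN. Cells of the human line AC16 met aerosol from an electronic cigarette or filtered air at an air–liquid interface, where the upper side of the cell layer is open to the gas, and mRNA libraries from 5 replicates of each condition were compared. The AC16 line is used as a cardiomyocyte model and was made by fusing adult human ventricular heart cells with a virus-transformed fibroblast line, so it divides in culture. Cells of both groups were grown in the same serum-containing medium. The sources used here do not state the dose, the make-up of the aerosol or how long the cells were exposed, nor whether replicates were separate cultures, so p-values measure the spread between these libraries, which may be technical.

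Voltage-gated channels are membrane pores that open when the membrane potential changes. In heart muscle a sodium current starts the action potential, an L-type calcium current sustains it and triggers contraction, and several potassium currents end it, while inward rectifiers hold the resting potential and HCN channels drive pacemaking. Pore subunits work with accessory subunits that set their trafficking and gating. Connexins join in groups to form channels between neighbouring cells, through which the action potential spreads.

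The total count was 65902331 to 88806394 in the filtered air libraries and 60482726 to 72099157 in the aerosol libraries. A count of 10, the minimum used here for detection, was therefore worth 0.113 to 0.165 CPM (counts scaled to the size of the library). The members held 0.0610 to 0.0660% of all counts in the filtered air libraries and 0.0509 to 0.0716% in the aerosol libraries, with overlapping ranges. The first principal component of all genes tested separated the groups, at -30.8 to -10.87 in filtered air and -8.247 to 72.57 after the aerosol. Aerosol libraries 4 and 5 stood apart on it (52.98 and 72.57, the others between -30.8 and 10.79). Those libraries also held the largest mitochondrial shares (18.1 and 19.5% of counts) and the fewest genes with at least 10 counts (19136 and 18182, against 20167 to 21586). The mitochondrial share also separated the groups as a whole, at 7.75 to 10.3% in filtered air and 12.4 to 19.5% after the aerosol, and its part in the comparisons below was not tested. Of 12 markers of cardiomyocytes, TTN alone was detected in filtered air, and TNNT2, MYH6, MYH7, MYL2, MYL7, MYBPC3 and NKX2-5 were at 0 in all 5 of those libraries, so the labelled cell type is not borne out by its defining contractile genes. All 8 fibroblast markers were detected, with summed levels of 2489 to 3119 CPM in filtered air and 2200 to 2926 CPM after the aerosol. Most of that sum was COL1A1 (2208 ± 196 and 1897 ± 214 CPM), and the lowest marker was DCN (1.54 ± 1.13 and 0.951 ± 1.05 CPM). Of markers of other cells, 4 of 4 for smooth muscle (summed levels of 64.0 to 101 CPM in filtered air and 24.3 to 35.4 CPM after the aerosol) and 3 of 4 for epithelium (175 to 265 and 128 to 149 CPM) were detected. Both sums lay lower after the aerosol without overlap, and most of each sum came from 1 gene, TAGLN (72.0 ± 11.8 and 22.4 ± 3.04 CPM) and KRT18 (191 ± 32.7 and 120 ± 9.34 CPM). CNN1 of the smooth muscle list (7.31 ± 2.68 and 3.81 ± 1.59 CPM) also had a lower mean after the aerosol, with overlapping ranges. The same held for KRT8 of the epithelium list (25.3 ± 2.84 and 18.4 ± 4.09 CPM). ACTA2 and MYH11 of the smooth muscle list and CDH1 of the epithelium list had higher means after the aerosol, and EPCAM overlapped between groups. For neurons 2 of 6 were detected (26.8 to 43.9 and 25.8 to 53.0 CPM, with NEFL and STMN2 at 0 in filtered air), for leukocytes 1 of 3 (35.5 to 60.4 and 33.2 to 55.0 CPM, with CD3E at 0) and for endothelium 1 of 5 (1.15 to 1.59 and 0.721 to 3.28 CPM, with CDH5 at 0). The part of such differences in the results below was not tested.

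In filtered air a minority of the channel and connexin genes met the minimum for detection. A member was called detected when each of the 5 filtered air libraries held at least 10 counts, and 55 of 163 members met this, 54 of them protein-coding. Another 48 had some counts without reaching that level, and 60 were at 0 in all 5 filtered air libraries, 51 of these in all 10 libraries. Single filtered air libraries held at least 10 counts for 65 to 78 of the 163 members. For all 58735 genes, coding and noncoding, that number was 20167 to 21518. A count of 0 over the 5 filtered air libraries together allows a level of up to 0.00747 CPM (3 counts, counting error only). Of the 9 members counted after the aerosol and in no filtered air library, no library held more than 33 counts.

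**Figure D1:**
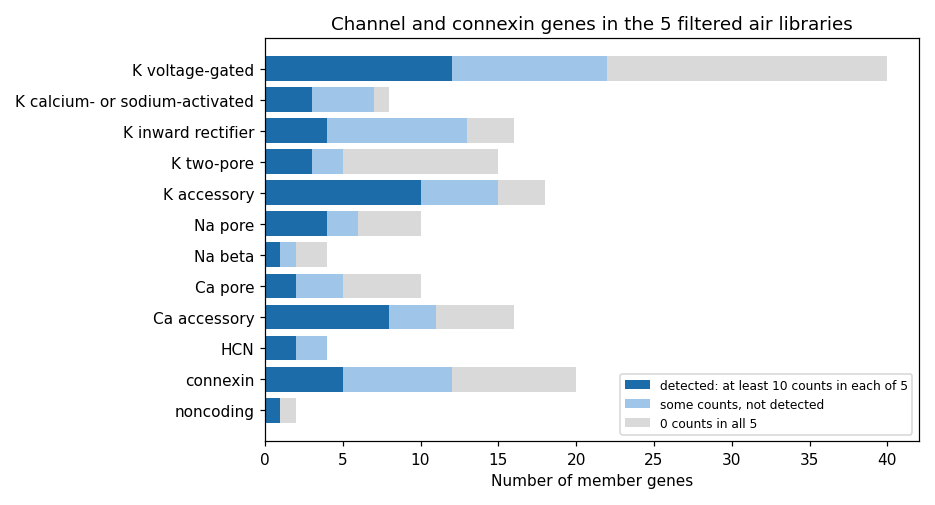
Number of member genes (x axis) in each family (y axis), split into those detected in filtered air (at least 10 counts in each of 5 libraries), those with some counts and those at 0 in all 5 libraries. Accessory subunits of potassium channels (10 of 18) and of calcium channels (8 of 16) were detected more widely than KCNK leak channels (3 of 15) or calcium channel pores (2 of 10).

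Among potassium channel pores, 12 of 40 voltage-gated genes were detected, and 18 were at 0 in filtered air. The KCNA genes, which encode delayed rectifier and transient pores, were at 0 in filtered air for 7 of 8 members, including KCNA5, which carries an atrial current, and KCNA4. KCNH2, the pore of the rapid delayed rectifier that ends the ventricular action potential, had no count in any library, and KCNQ1, the pore of the slow one, had 4 counts in all 10 libraries. The voltage-gated pores with most counts were KCND1, a transient-current pore, at 10.0 ± 2.11 CPM (mean ± SD, n = 5) and KCNQ5, an M-type pore, at 9.05 ± 2.74 CPM in filtered air. Transcript lengths were not part of the files, so CPM is compared between groups and not between genes.

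The sodium channel pores detected, 4 of 10, included SCN8A, SCN9A and SCN2A. SCN8A and SCN9A, known mainly from neurons, were at 38.1 ± 5.07 and 12.7 ± 4.08 CPM in filtered air. Of the calcium channel pores, CACNA1C, the cardiac L-type pore, was detected at 1.94 ± 0.711 CPM and CACNA1D at 0.309 ± 0.160 CPM. The T-type pore CACNA1H had no count in any library, and CACNA1G had counts in filtered air libraries 2 and 3 (16 and 58). HCN4, the main pacemaker channel of the sinus node, had counts in filtered air libraries 1 and 4 (20 and 25), while HCN3 was at 4.69 ± 0.374 CPM.

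Of 20 connexin genes 5 were detected: GJC1, GJA1, GJA3, GJA5 and GJA9. GJC1, a connexin of the conduction system and of early heart muscle, was at 153 ± 26.3 CPM in filtered air, and GJA1, the main connexin of ventricular muscle, at 14.1 ± 4.20 CPM. GJA5, the atrial connexin, was at 1.33 ± 0.579 CPM. Counts of GJA1 may be shared with its processed pseudogene GJA1P1, which held 0 to 118 counts per library.

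The GJA1 promoter is shown because it is known to respond to AP-1, the FOS and JUN factor, and because FOS and FOSB mRNA rose after the aerosol (log2 fold changes of 1.68 ± 0.29 and 3.27 ± 0.38, edgeR adjusted p = 0.0123 and 0.00187). GJA1 itself did not pass the test (edgeR adjusted p = 0.435), and a part of AP-1 in its values was not tested. The window runs from 250 bases before to 50 bases after the gene start (RefSeq, GRCh38.p14, chr6:121435396-121435695, plus strand, 5′ to 3′). Capitals mark the match to the AP-1 motif TGANTCA.
GJA1 promoter: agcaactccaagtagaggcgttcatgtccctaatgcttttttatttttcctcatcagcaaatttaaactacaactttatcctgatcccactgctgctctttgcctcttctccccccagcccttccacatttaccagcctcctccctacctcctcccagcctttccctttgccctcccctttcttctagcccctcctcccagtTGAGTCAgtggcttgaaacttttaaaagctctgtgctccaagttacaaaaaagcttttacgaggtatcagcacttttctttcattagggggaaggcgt
The match starts at base 203 of the 300. The motif reads the same on both strands, and 7.71% of 35116 promoter windows hold it. It is in 6 of 73 windows of tested members (8.22%), a share near that of all windows. A match is a description of these letters, not a shown binding site.

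Of the 33 channels and connexins of the cardiac action potential, 15 were detected, 7 were at 0 in all filtered air libraries and 11 lay between. The 15 included CACNA1C, CACNA1D, CACNB2, CACNA2D1, HCN2, KCNIP2, KCNE3, KCNJ2, KCNJ8, KCNMA1, GJA1, GJA5 and GJC1. The 7 at 0 were KCNH2, KCNA4, KCNA5 and KCND2, which carry repolarising currents, the rectifier KCNJ5, the leak channel KCNK3 and CACNA1H. Of these, KCND2 had 32 counts and KCNK3 had 4 over the aerosol libraries, and the other 5 had none. The rectifiers KCNJ3 and KCNJ11 and the calcium-activated KCNN2, among the 11, held 35, 13 and 40 counts over the filtered air libraries and 16, 28 and 30 over the aerosol libraries.

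Detection depended on the single library for many members. Of 75 members with a mean of at least 10 counts in filtered air, 16 were at 0 in at least 1 filtered air library. Of 70 members with such a mean after the aerosol, 26 were at 0 in at least 1 aerosol library. The number of members with at least 10 counts was 65 to 78 in the filtered air libraries and 69, 75, 70, 58 and 55 in aerosol libraries 1 to 5. Of the 55 members detected in filtered air, 42 also had at least 10 counts in every aerosol library. Of the 55, 6 were at 0 in aerosol library 4, 7 in library 5 and 3 in at least 1 of libraries 1 to 3. GJA5, KCNIP2 and CACNG6 were at 0 in both libraries 4 and 5, and CACNA1C in library 5. In aerosol libraries 4 and 5 all genes with at least 10 counts were also fewest (above). Zeros were not counted over all genes, and the part of library quality in those of the members was not tested.

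**Figure D2:**
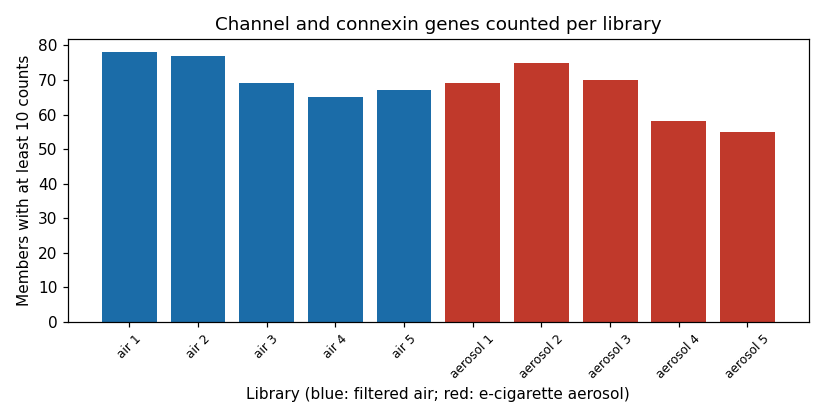
Number of members with at least 10 counts (y axis) in each of the 10 libraries (x axis), filtered air in blue and aerosol in red. Aerosol libraries 4 and 5, at 58 and 55, lie below the other 8, which range from 65 to 78.

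The comparison of aerosol with filtered air asked which of these genes changed after the exposure. Of 66 members with enough counts to test, 65 of them protein-coding, 1 rose and 0 fell (edgeR quasi-likelihood test over 20166 genes, Benjamini-Hochberg adjusted p under 0.05). The member that rose was the noncoding KCNQ1OT1, so 0 of 65 protein-coding channel and connexin genes passed. Over all genes tested the share past the same threshold was 3.01%, with 1.62% higher and 1.39% lower, so a count of 1 in 66 is near the background. At an unadjusted p under 0.05 there were 9 members, against 18.3% of all genes tested. Of these 6 were above 0 (among them KCNQ1OT1, CACNG8, KCNT2, KCNJ13 and KCNMB3), against 8.78% of all genes, and 3 below (GJC1, GJA3 and CACNG4), against 9.48%. The median log2 fold change of the 66 was 0.02, with 33 above 0 and 33 below, and that of all genes tested was -0.00. Limma-voom also called 1 member (3.34% of all genes), and DESeq2 called 5 of the 84 members to which it gave an adjusted p, all higher, among them KCNQ1OT1, CACNG8, KCNJ13 and KCNV2 (8.12% of all genes).

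**Figure D3:**
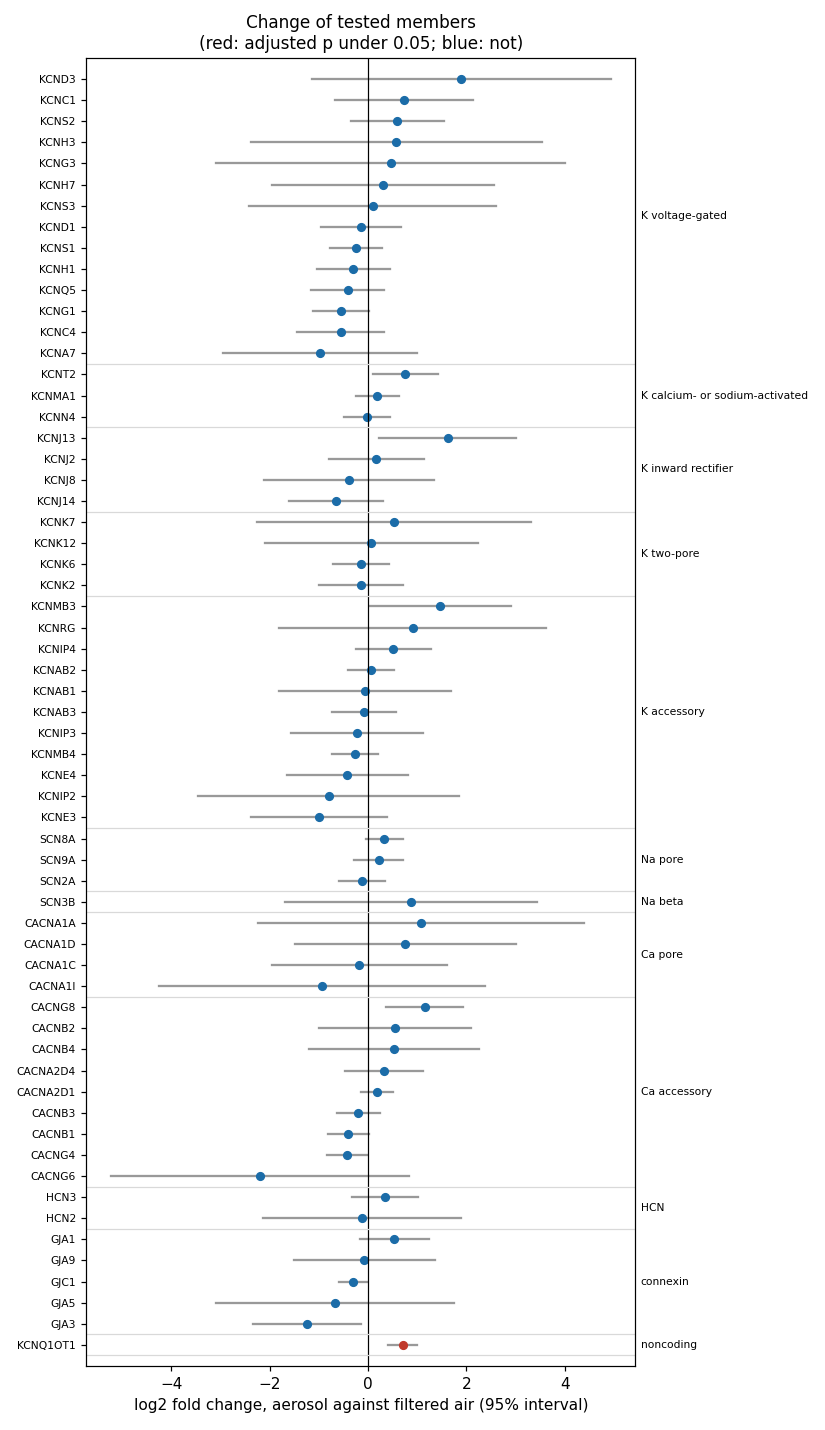
Log2 fold change of 61 of the 66 tested members with its 95% interval (x axis), by family (y axis), red where the edgeR adjusted p was under 0.05. KCNQ1OT1 (0.70) is the only red point, and the intervals of 34 of the 66 members are wider than 2 on this scale.

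KCNQ1OT1 is a long nuclear RNA transcribed from an intron of KCNQ1 in the opposite direction, and it silences neighbouring imprinted genes on the paternal chromosome. Its gene lies on chromosome 11 at 2608328 to 2699994 (GRCh38.p14). The filtered air libraries held 36.1, 30.6, 30.1, 34.2 and 24.5 CPM and the aerosol libraries 51.3, 42.4, 46.8, 56.6 and 55.6 CPM. Every aerosol library was above every filtered air library, as for 3 of the 66 tested members and for 3.52% of all genes tested. The reverse held for 0 members and 3.93% of all genes, and the groups failed to overlap in either direction for 7.45%. The log2 fold change was 0.70 ± 0.14 (standard error), with a 95% interval of 1.32- to 2.00-fold (edgeR adjusted p = 0.0195). The sources used here do not say whether counting used the strand. KCNQ1 itself had 4 counts in all 10 libraries, all in filtered air library 2. The edgeR adjusted p was 0.0611 without filtered air replicate 2 and 0.0640 without filtered air replicate 3, with log2 fold changes of 0.692 and 0.686. Without both aerosol libraries 4 and 5 the edgeR adjusted p was 0.0602 and the log2 fold change 0.59. In those 3 fits the count of members that changed was 0. Over all genes tested they called 187, 183 and 416 genes, against 608 in the main fit. Other nuclear noncoding RNAs moved in the same libraries: NEAT1 was at 39.8 to 73.8 CPM in filtered air and 247 to 346 CPM after the aerosol, and MALAT1 at 2797 to 3765 and 7486 to 44762 CPM. The part of a general shift of nuclear RNA in the KCNQ1OT1 value was not tested.

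Among the other members whose groups did not overlap was CACNG8. CACNG8, on chromosome 19 (53962937 to 53990215), encodes a gamma subunit best known as a partner of glutamate receptors in neurons. Its libraries held 0.868, 3.61, 3.17, 3.60 and 2.55 CPM in filtered air and 5.39, 4.82, 7.63, 7.40 and 5.35 CPM after the aerosol. The log2 fold change was 1.15 ± 0.36 (edgeR adjusted p = 0.108, DESeq2 adjusted p = 0.0214). CACNG8 thus passed in one tool and not in the main test.

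**Figure D4:**
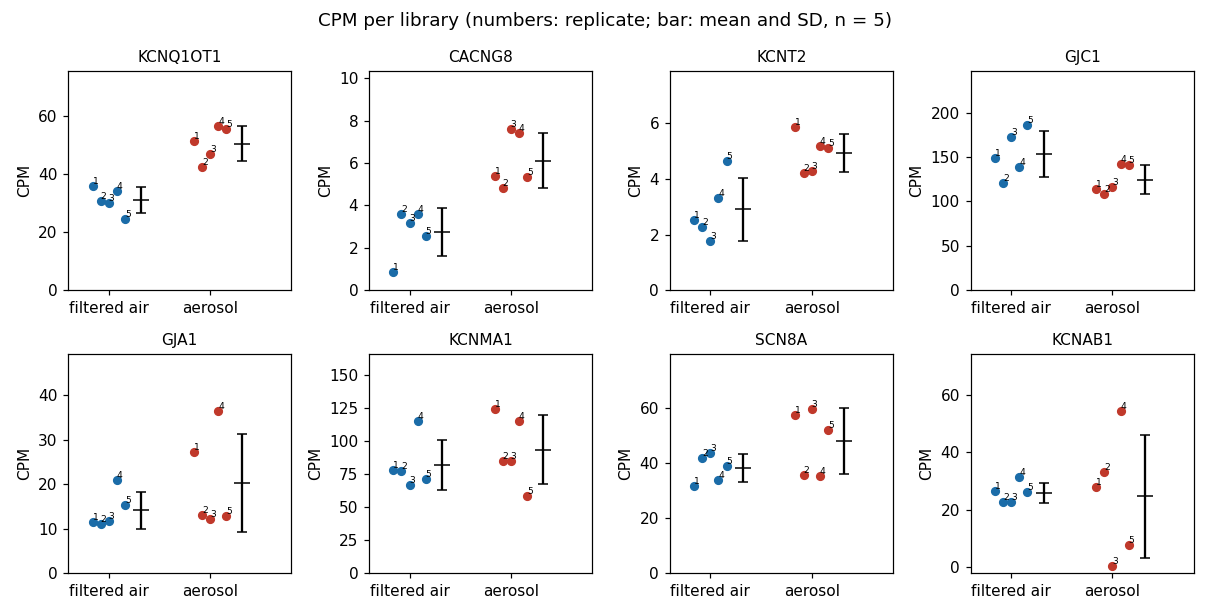
CPM (y axis) of 8 members in each filtered air (blue) and aerosol (red) library, numbered by replicate, with the mean and SD of 5 in black. KCNQ1OT1 and CACNG8 do not overlap between groups, and the aerosol libraries of KCNAB1 run from 0.599 to 54.4 CPM.

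Of 6 tested sodium channel genes, 4 pores and 2 beta subunits, none passed the test. SCN8A was at 31.9, 42.0, 43.6, 33.9 and 39.0 CPM in filtered air and at 57.3, 35.6, 59.8, 35.1 and 52.0 CPM after the aerosol. The aerosol libraries 1, 3 and 5 were above all filtered air libraries and 2 and 4 were among them, with a log2 fold change of 0.33 ± 0.18 (interval 0.97- to 1.64-fold, edgeR adjusted p = 0.344). SCN9A had a log2 fold change of 0.21 ± 0.23 and SCN2A of -0.12 ± 0.22.

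Of 13 tested calcium channel genes, 4 pores and 9 accessory subunits, none passed the test. CACNA2D1, an alpha2delta subunit that carries pores to the membrane, was at 53.1, 49.0, 36.9, 46.4 and 52.7 CPM in filtered air and 39.1, 54.9, 55.2, 54.6 and 66.4 CPM after the aerosol. The groups overlapped, and the interval of 0.90- to 1.42-fold bounds the change of this subunit closely (edgeR adjusted p = 0.591). The beta subunits CACNB3 and CACNB1 were at -0.19 ± 0.20 and -0.40 ± 0.19 on the log2 scale, and CACNG4, a gamma subunit, at -0.42 ± 0.19 (edgeR adjusted p = 0.257). CACNB2, the beta subunit most tied to the cardiac L-type pore, varied from 0.853 to 3.98 CPM in filtered air and from 0.279 to 7.27 CPM after the aerosol. CACNA1C itself was at 1.70, 2.09, 2.84, 2.17 and 0.903 CPM in filtered air and at 2.49, 1.42, 1.61, 3.06 and 0 CPM after the aerosol, an interval of 0.26- to 3.03-fold. For CACNA1D the interval was 0.36- to 7.99-fold and for the T-type pore CACNA1I 0.05- to 5.16-fold, and the log2 fold change of CACNA1I moved from -0.94 to -2.51 without aerosol replicate 2 and to -0.22 without aerosol libraries 4 and 5. CACNG6, another gamma subunit, was at 0 in aerosol libraries 1, 4 and 5 and had the lowest log2 fold change of all members (-2.19 ± 1.40, edgeR adjusted p = 0.459).

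Of 26 tested potassium channel pores none passed the test, with 14 above 0 and 12 below. KCNMA1, the large-conductance calcium-activated channel, was at 78.4, 77.2, 66.9, 115 and 71.7 CPM in filtered air and 124, 84.6, 84.8, 115 and 58.8 CPM after the aerosol. The groups overlapped (log2 fold change 0.19 ± 0.20, interval 0.85- to 1.55-fold, edgeR adjusted p = 0.693). Its antisense gene KCNMA1-AS1 held 36 to 153 counts per library. KCNN4, the intermediate-conductance channel, was at -0.02 ± 0.21, and its interval was 0.71- to 1.36-fold. KCNT2, a sodium-activated channel, was at 2.54, 2.28, 1.76, 3.31 and 4.64 CPM in filtered air and 5.86, 4.20, 4.27, 5.17 and 5.13 CPM after the aerosol, with filtered air library 5 alone reaching the aerosol range (0.76 ± 0.30, edgeR adjusted p = 0.198). Among voltage-gated pores KCND1 was at -0.14 ± 0.38 and KCNQ5 at -0.41 ± 0.35. KCND3, which carries the transient outward current of the ventricle, had 0 to 41 counts in the filtered air libraries and 0 to 180 in the aerosol libraries, with an interval of 0.45- to 30.5-fold. Its log2 fold change of 1.90 ± 1.40 moved to 0.24 without aerosol replicate 4.

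The inward rectifiers and leak channels were low or variable. KCNJ2, which holds the resting potential of ventricular cells, was at 1.57, 1.23, 2.01, 1.65 and 2.75 CPM in filtered air and 1.60, 4.55, 1.20, 1.63 and 1.37 CPM after the aerosol. Its interval was 0.57- to 2.20-fold. KCNJ8, a pore of ATP-sensitive channels, had 0.23- to 2.53-fold, and KCNJ14 0.33- to 1.23-fold. KCNJ12, the other resting-potential rectifier, had 81 counts over the filtered air libraries and 5 over the aerosol libraries, was not tested, and shares nearly all its sequence with KCNJ18. KCNJ13, a rectifier of epithelia, was at 0.127 to 0.556 CPM in filtered air and 0.475 to 1.85 CPM after the aerosol (1.62 ± 0.65 on the log2 scale, edgeR adjusted p = 0.204, DESeq2 adjusted p = 0.0267). KCNK2, a stretch-sensitive leak channel, ranged from 8.25 to 25.4 CPM in filtered air and from 8.02 to 27.5 CPM after the aerosol (-0.15 ± 0.39), and KCNK6 was at -0.14 ± 0.26. The pacemaker genes HCN3 and HCN2 had log2 fold changes of 0.34 ± 0.31 and -0.13 ± 0.93.

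KCNAB1, a beta subunit that binds KCNA pores, had the widest spread between aerosol libraries of the 24 tested members whose filtered air mean reached 5 CPM. The filtered air libraries held 26.4, 22.8, 22.8, 31.4 and 26.1 CPM, a 1.38-fold range. The aerosol libraries held 27.8, 33.0, 0.599, 54.4 and 7.87 CPM, a 90.9-fold range, with library 3 lowest and library 4 highest. In counts these were 1774, 2295, 36, 3505 and 425. The next widest aerosol range among those 24 members was 5.88-fold, for KCND1, whose lowest aerosol value was in library 5. The group means of KCNAB1, 25.9 ± 3.51 and 24.7 ± 21.4 CPM, differed little, and its interval was 0.28- to 3.21-fold. The related beta subunit KCNAB2 was at 7.71 ± 0.676 and 8.03 ± 2.02 CPM (0.06 ± 0.22). Among the other accessory subunits KCNIP2, the partner of transient-current pores, was at -0.80 ± 1.23, a value that moved to -0.21 without filtered air replicate 3 and to -0.07 without aerosol libraries 4 and 5, and KCNE3 had an interval of 0.19- to 1.31-fold. KCNMB3, a beta subunit of the KCNMA1 family of channels, was at 1.34, 6.20, 0.992, 1.60 and 1.14 CPM in filtered air and 3.15, 2.76, 7.83, 2.13 and 15.4 CPM after the aerosol. Filtered air library 2 lay inside the aerosol range (1.47 ± 0.66, edgeR adjusted p = 0.264). KCNE1 and KCNE2, partners of the delayed rectifiers, had 105 and 46 counts over the 5 filtered air libraries and were not tested, and the first of them has a near copy, KCNE1B.

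**Figure D5:**
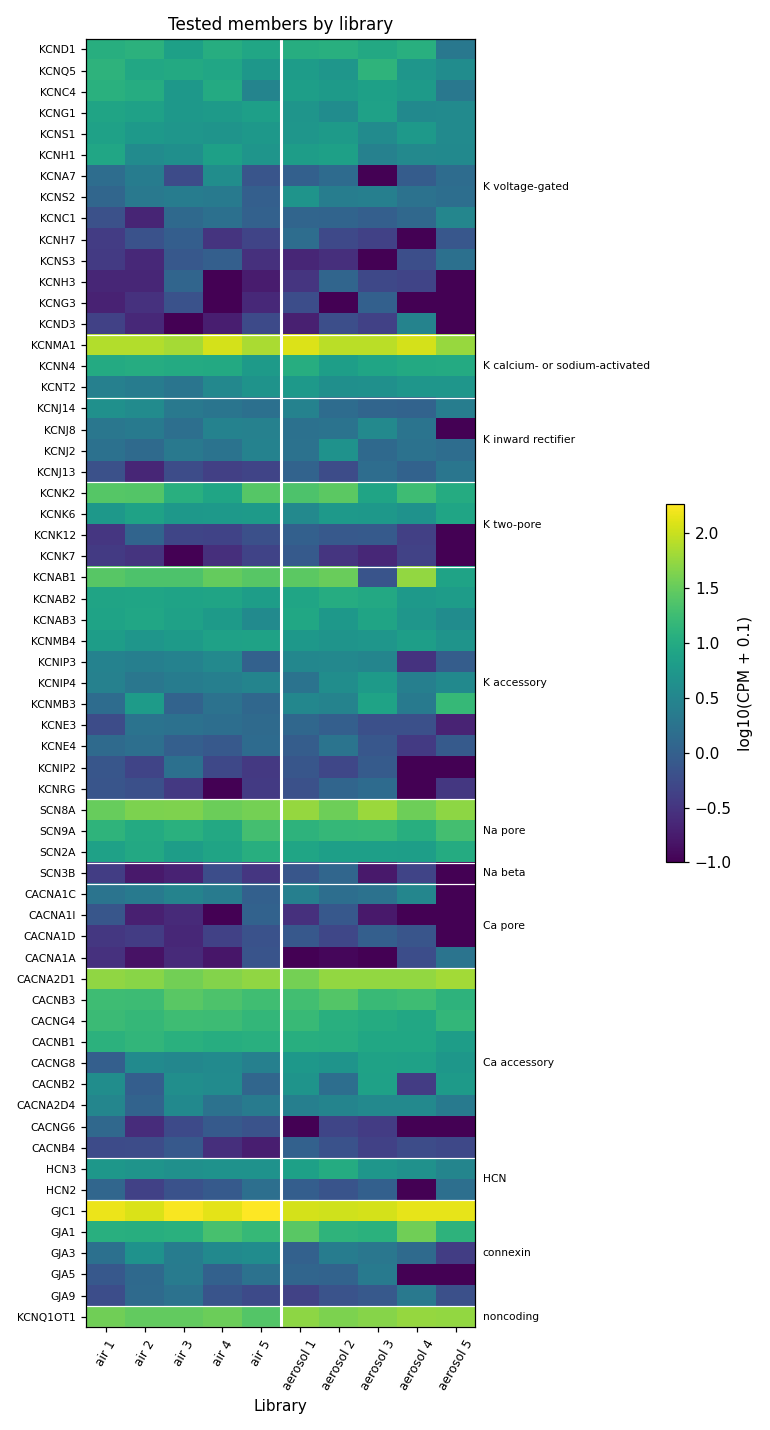
Log10 of CPM + 0.1 (colour) of 61 of the 66 tested members (rows, by family and within it by filtered air level) in the 10 libraries (columns). KCNAB1 is low in aerosol library 3, and the darkest cells, which are zeros, are many in aerosol libraries 4 and 5, with GJA5, KCNIP2 and CACNG6 among them.

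Of 6 tested connexins none passed the test, with 2 above 0, 4 below and a median log2 fold change of -0.19. GJC1 was at 149, 121, 172, 138 and 186 CPM in filtered air and at 114, 109, 116, 143 and 141 CPM after the aerosol. All 5 aerosol libraries were below the filtered air median, the groups overlapped, and the log2 fold change was -0.30 ± 0.13 (interval 0.67- to 0.99-fold, edgeR adjusted p = 0.242). GJA1 was at 11.5, 11.1, 11.8, 21.0 and 15.3 CPM in filtered air and at 27.2, 13.2, 12.3, 36.6 and 12.8 CPM after the aerosol. Aerosol libraries 1 and 4 were above every filtered air library and the other 3 were among them, so that the log2 fold change of 0.53 ± 0.32 had an interval of 0.89- to 2.35-fold (edgeR adjusted p = 0.435). GJA3, a connexin of the lens, was at -1.23 ± 0.51 (edgeR adjusted p = 0.219), and GJA5 at -0.67 ± 1.12, which moved to -1.36 without aerosol replicate 3 and to 0.06 without aerosol libraries 4 and 5.. In bulk RNA, fewer cells with a transcript and less of it per cell cannot be told apart.

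Lists of genes that work beside these channels held few changes. Of 23 tested scaffolds and regulators of channels 2 rose and 0 fell (median log2 fold change 0.04). The risers were AKAP9, which anchors protein kinase A to the KCNQ1 channel complex, from 167 ± 31.7 to 341 ± 117 CPM (1.03 ± 0.22, edgeR adjusted p = 0.0289), and FGF14, an intracellular regulator of sodium channels, from 20.3 ± 3.42 to 37.6 ± 10.3 CPM (0.89 ± 0.19, edgeR adjusted p = 0.0301). KCNQ1 itself had only 4 counts in all 10 libraries (above). None of 14 ion pumps and exchangers, 29 other channels or 12 partners of the gap junction and intercalated disc passed, with medians of -0.16, -0.02 and -0.01, where the largest counts included those of FXYD5, PIEZO1, VDAC1, LMO7 and VCL. Their background is the 3.01% given above, but these lists were chosen with earlier results of these data known.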

How the data were processed

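Gene counts per library were used as the authors deposited them, 1 whole-number count per Ensembl identifier, in 10 mRNA libraries. Per the submitters' processing notes the tools were HISAT, featureCounts 1.5.0-p3 and DESeq 1.8.3 with build hg38, and the sources used here do not state settings, annotation release or strand use. The 10 miRNA libraries were not analysed here, some genes are counted in totals but not reported here by name, and 0 columns were left unmapped. Groups and replicate numbers came from the labels, which give no batch. Members and gene lists were chosen with earlier results of these data known.

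The main test was edgeR 4.0.16 in R 4.3.3 (TMM scaling, filterByExpr, robust quasi-likelihood F test, group alone), fitted on 20166 genes and adjusted over all of them. CPM uses the TMM-adjusted library size. Standard errors and 95% intervals were derived from the F statistic of each fold change. The common biological coefficient of variation was 0.602. Alternatives used DESeq2 1.42.0, limma 3.58.1 and other settings. All pairs of libraries differed by more than sampling noise (lowest chi-square per degree of freedom 59.0). The fit was tested on simulated data in which genes of at least 1 CPM were changed. Of 50 genes each with a true log2 fold change of -1 and 1, it called 20 and 23. At -2 and 2 it called 40 and 37 of 50 each. A gene that did not pass may therefore still have changed. The simulation also gave 10 false calls. These rates do not cover members under 1 CPM, and 44 members had a mean of at least 1 CPM.

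Members were named if they passed the test, if they had an unadjusted p under 0.05 with groups that did not overlap, if they were among the 2 of their family with most CPM in filtered air (transcript length, which the rule called for, was not in the files), or if they belong to the 33 channels and connexins of the cardiac action potential. Of each partner list, up to 4 genes past the threshold or else the 2 with most CPM were named, and others named were chosen after their values were seen. Positions, which 162 members had, and the promoter are from RefSeq (GRCh38.p14). Intervals and floors cover counting or replicate error of these libraries only.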

Additional observations from a re-analysis of the deposited data

Results flagged for a closer look

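In 60 sets of 5 libraries (30 named and tested members in each group), 9 held a library far from the other 4 by Dixon's criterion at its 95% critical value. Chance flags about 1 in 20 such sets only where values are independent and normally distributed. CPM is bounded at 0, the lowest value in the flagged sets of CACNA1I and KCND3, and the sets share the same 10 libraries. The 9 flags therefore cannot be set against that rate. After the aerosol, KCND1 was lowest in library 5 (1.96 CPM, next 9.23), KCND3 was highest in library 4 (2.79 CPM, next 0.518) and KCNQ5 in library 3 (13.4 CPM, next 6.41). KCNJ2 and CACNA1I were highest in library 2 (4.55 CPM, next 1.63, and 0.705 CPM, next 0.188).

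In filtered air, KCNMA1 was highest in library 4 (115 CPM, next 78.4) and KCNK6 in library 2 (7.52 CPM, next 5.99). Library 5 was lowest for KCNAB2 (6.52 CPM, next 7.90) and KCNN4 (5.99 CPM, next 9.48).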

How the results depend on the processing

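The main count was 1 member changed, 1 higher and 0 lower. It was 5 changed and 5 higher with DESeq2, 2 and 2 at an adjusted p under 0.10, and 0 and 0 at 0.01, without both aerosol libraries 4 and 5, and among protein-coding genes alone, where KCNQ1OT1 is not tested. Leaving out single libraries gave 0 to 1 changed and 0 to 1 higher, with 0 lower throughout. Other scalings, filters and limma-voom left the count at 1. Calls over all genes moved too, from 608 of 20166 in the main fit to 1957 of 24094 with DESeq2. They were 416 of 22304 without both aerosol libraries 4 and 5, and 417 of 13476 among protein-coding genes alone. Without single libraries they were 183 to 757, and with other scalings, filters and limma-voom 540 to 742. Those at 0.10 and 0.01 were not counted. The replicate numbers are shared between groups, but same-numbered libraries deviated together only weakly (correlations of 0.00900 to 0.102). The fit with the replicate number as a block also called 1 member, and moved the median log2 fold change of tested members from 0.02 to -0.19, against -0.10 to 0.13 without single libraries. With the block the median of all genes tested was also lower, at -0.08. The medians of members and of all genes were -0.19 and -0.09 with limma-voom, and -0.12 and -0.10 with library-size scaling. The number detected in filtered air was 55 to 57 without single libraries and 44 to 59 at other minimum levels. Of 589 alternative values of named members 29 had the other sign, none of them of a member that passed the main test: KCNN4 (0.00820 with RLE, 0.0229 above 1 CPM, 0.0405 among protein-coding genes, 0.0634 with upper-quartile scaling), KCNAB1 (0.0149, upper quartile), KCNAB2 (-0.0152, library size), KCNJ2 (-0.00452, replicate block) and, without aerosol libraries 4 and 5, KCNJ8 (0.00738), KCNK2 (0.0149), KCND1 (0.0744) and GJA5 (0.0563). Without single libraries the ranges were -0.14 to 0.0636 for KCNN4, -0.58 to 0.24 for KCNAB1, -0.0664 to 0.15 for KCNAB2, -0.35 to 0.35 for KCNJ2, -0.49 to 0.14 for CACNA1C, -0.51 to 0.18 for HCN2, -0.38 to 0.0300 for KCNK2 and -0.25 to 0.11 for KCND1. The block also moved KCNIP2 to -1.94, GJA5 to -1.89, KCNAB1 to -0.77 and CACNA1C to -0.76, and limma-voom moved these 4 to -2.20, -2.75, -1.04 and -1.18, none past the threshold. The cause was not tested. Errors were wider for low members, with a median standard error of 0.23 for the 24 tested members with at least 5 CPM in filtered air and 0.81 for the other 42.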

Other observations

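Summed over all 163 members the libraries held 622 ± 20.7 CPM in filtered air and 637 ± 44.5 CPM after the aerosol (mean ± SD, n = 5). Of these sums, the 2 noncoding genes held 31.1 ± 4.46 and 50.5 ± 5.98 CPM. By family the sums were 52.3 ± 10.3 and 47.4 ± 6.76 CPM for voltage-gated potassium pores, 60.7 ± 7.84 and 72.6 ± 15.3 CPM for sodium pores, 106 ± 3.13 and 107 ± 6.68 CPM for calcium channel accessory subunits and 173 ± 26.5 and 149 ± 21.8 CPM for connexins. KCNV2, a modifier subunit of other potassium pores, had 0, 5, 0, 0 and 0 counts in filtered air and 41, 30, 9, 0 and 96 counts after the aerosol, was below the filter of the main test and had a DESeq2 adjusted p of 0.0163.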
